A study of Mus musculus with 6 samples.

Results

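RNA sequencing measured Trp53, the mouse gene of the transcription factor p53, together with 2 of its regulators and 7 of its target genes. The 10 genes were taken by symbol from the deposited gene tables (Trp53, Mdm2, Mdm4, Ccng1, Zmat3, Plk2, Phlda3, Pidd1, Bax and Bbc3) out of 29267 gene identifiers, and all 10 passed the filter of a mean of at least 10 counts. All libraries came from OG2 mouse neural stem cell cultures at passage 8. OG2 mice carry a green fluorescent protein reporter under the control of the Oct4 gene. The differentiated cells, whose titles read D2, are called D2 here, and the undifferentiated stem cells NSC. Within D2 and within NSC, 1 library came from cells with naloxone, an opioid receptor antagonist, 1 from cells with DAMGO, which activates the mu opioid receptor, and 1 from a control without ligand. Doses and ages are not stated. No group had a replicate and separate cultures are not stated either, so D2 was set against NSC with the 3 ligand conditions as its libraries, each ligand was set against control with the pair of states as its libraries, and all p-values rest on the scatter among these 6 libraries, which may be technical.

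p53 is a transcription factor that is held at low protein levels by the ubiquitin ligase Mdm2, with which Mdm4 forms a complex, and that is stabilised when DNA is damaged or cells are stressed. It then activates genes that stop the cell cycle, repair DNA or start cell death, and it also activates Mdm2, which closes a feedback loop. In neural stem cells p53 is known to restrain self-renewal and proliferation. Its activity is set largely at the protein level, which RNA sequencing does not measure.

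Library totals ranged from 8417074 to 13561237 expected counts. Levels are given as CPM, counts scaled to library size, or as TPM, which is scaled to transcript length as well. The D2 libraries differed more from each other than the NSC libraries did. Among 8984 genes with at least 80 counts in every library, the exact 95% counting interval of the ratio of a ligand library to its control excluded 1 for 25.6% (naloxone) and 19.2% (DAMGO) in D2, against 9.68% and 8.48% in NSC. The labelled state was checked against marker genes, beside a background of 39.8% of all tested genes that fell in D2 and 40% that rose. All 8 cell cycle markers fell in D2, with a summed level of 391 to 453 TPM in D2 against 3511 to 3574 TPM in NSC, and all 5 astrocyte and all 7 oligodendrocyte lineage markers rose. The part of dividing cells or of cell type in the results was not tested, and fewer cells of a type cannot be told apart from less RNA per cell. Of 5 neural stem cell markers 3 rose and 2 fell in D2, and of 5 neuronal markers 3 rose and 1 fell. Of 4 tested fibroblast and pericyte markers 2 rose. All 6 listed markers of these types, tested or not, summed to 10.7 to 19.1 TPM in D2, highest in the D2 control, against 1.08 to 6.09 TPM in NSC. The 4 endothelial and the 4 microglial markers summed to at most 2.38 and 0.56 TPM in any library.

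The promoter windows of the members are shown first, because the p53 response of a gene depends on a DNA element made of pairs of a short half-site. Windows from RefSeq on build GRCm38.p6, running from 250 bases before to 50 bases after a transcript start, were found for 9 of the 10 members, all but Zmat3, with 12 windows in all. A match to the p53 half-site consensus, which reads the same on both strands, stood in 4 of the 12 windows, 1 in each of 4 members, against 8.36% of the 32851 promoter windows in the RefSeq table. The windows shown are those of Trp53 (chr11:69580109-69580408, plus strand), Mdm2 (chr10:117710709-117711008, minus strand), Ccng1 (chr11:40755237-40755536, minus strand) and Bax (chr7:45466849-45467148, minus strand), with the half-site in capitals, and those of Plk2 (chr13:110394794-110395093, plus strand) and Pidd1 (chr7:141443976-141444275, minus strand), the members with the largest falls in D2, which hold no match. Each is written 5′ to 3′ on the strand of its gene.
Trp53: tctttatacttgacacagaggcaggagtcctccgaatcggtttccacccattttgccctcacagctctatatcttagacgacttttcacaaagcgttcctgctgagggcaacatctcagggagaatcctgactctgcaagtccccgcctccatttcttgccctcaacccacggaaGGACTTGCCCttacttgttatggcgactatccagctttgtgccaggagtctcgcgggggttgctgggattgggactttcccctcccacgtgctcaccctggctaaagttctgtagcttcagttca
Mdm2: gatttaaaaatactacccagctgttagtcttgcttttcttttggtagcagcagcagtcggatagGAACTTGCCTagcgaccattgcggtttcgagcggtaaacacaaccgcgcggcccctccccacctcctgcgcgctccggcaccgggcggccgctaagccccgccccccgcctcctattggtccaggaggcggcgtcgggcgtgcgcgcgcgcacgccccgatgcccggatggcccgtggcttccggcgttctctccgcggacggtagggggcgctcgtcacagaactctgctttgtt
Ccng1: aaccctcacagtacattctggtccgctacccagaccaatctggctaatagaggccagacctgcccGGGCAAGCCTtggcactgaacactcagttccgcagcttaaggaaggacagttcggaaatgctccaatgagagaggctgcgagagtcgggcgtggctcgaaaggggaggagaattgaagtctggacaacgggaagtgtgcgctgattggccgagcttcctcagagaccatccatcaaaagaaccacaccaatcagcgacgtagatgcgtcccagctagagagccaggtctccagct
Bax: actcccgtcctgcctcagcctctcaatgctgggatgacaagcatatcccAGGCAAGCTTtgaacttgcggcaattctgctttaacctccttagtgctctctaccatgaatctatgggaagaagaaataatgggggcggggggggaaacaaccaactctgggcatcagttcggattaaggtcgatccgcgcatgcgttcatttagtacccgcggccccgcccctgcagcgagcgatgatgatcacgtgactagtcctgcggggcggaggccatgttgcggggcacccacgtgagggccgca
Plk2: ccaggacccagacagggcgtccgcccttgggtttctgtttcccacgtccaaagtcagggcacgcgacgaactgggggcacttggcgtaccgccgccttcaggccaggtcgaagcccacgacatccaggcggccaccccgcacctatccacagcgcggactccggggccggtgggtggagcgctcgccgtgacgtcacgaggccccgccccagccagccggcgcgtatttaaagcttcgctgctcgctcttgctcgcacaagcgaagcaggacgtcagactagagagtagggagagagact
Pidd1: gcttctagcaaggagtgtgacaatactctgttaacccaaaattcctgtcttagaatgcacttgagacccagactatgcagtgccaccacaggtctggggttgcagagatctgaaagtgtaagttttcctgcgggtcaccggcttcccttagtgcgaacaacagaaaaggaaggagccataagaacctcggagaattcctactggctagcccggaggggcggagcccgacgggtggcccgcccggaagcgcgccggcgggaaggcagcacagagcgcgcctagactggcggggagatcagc
Counted from the transcript start, the half-sites began at -75 in Trp53 (GGACTTGCCC), -186 in Mdm2 (GAACTTGCCT), -185 in Ccng1 (GGGCAAGCCT) and -201 in Bax (AGGCAAGCTT). The letters TTTGAA, a motif known from promoters of mitotic genes, were found on either strand of the Bax window, where they overlap the half-site, and in 17.9% of all windows. The letters CCAAT were found on either strand in windows of Trp53, Mdm2, Ccng1 (4 matches) and Bbc3, and in 37.4% of all windows. A match is a description of these letters and not evidence of binding, and known p53 elements such as that in the first intron of Mdm2 lie outside these windows.

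Transcripts of p53 and of most of its measured targets were lower in D2 than in NSC. In the edgeR fit over all 13216 tested genes, 9 of the 10 members fell in D2 and 0 rose, against a background in which 39.8% of tested genes fell, 40% rose and 79.8% passed in either direction, so a fall by itself was common. At least 2-fold lower were 4 members, Pidd1, Plk2, Ccng1 and Mdm4, against 18% of tested genes. Bbc3 did not pass (adjusted p = 0.128). The median log2 fold change was -0.80 over the members and 0.00 over all tested genes. The falls were of unequal size, and those of Pidd1, Plk2 and Ccng1 were the largest of the 10. All 10 members had lower CPM in each D2 library than in any NSC library, which held for 40.9% of all tested genes.

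**Figure D1:**
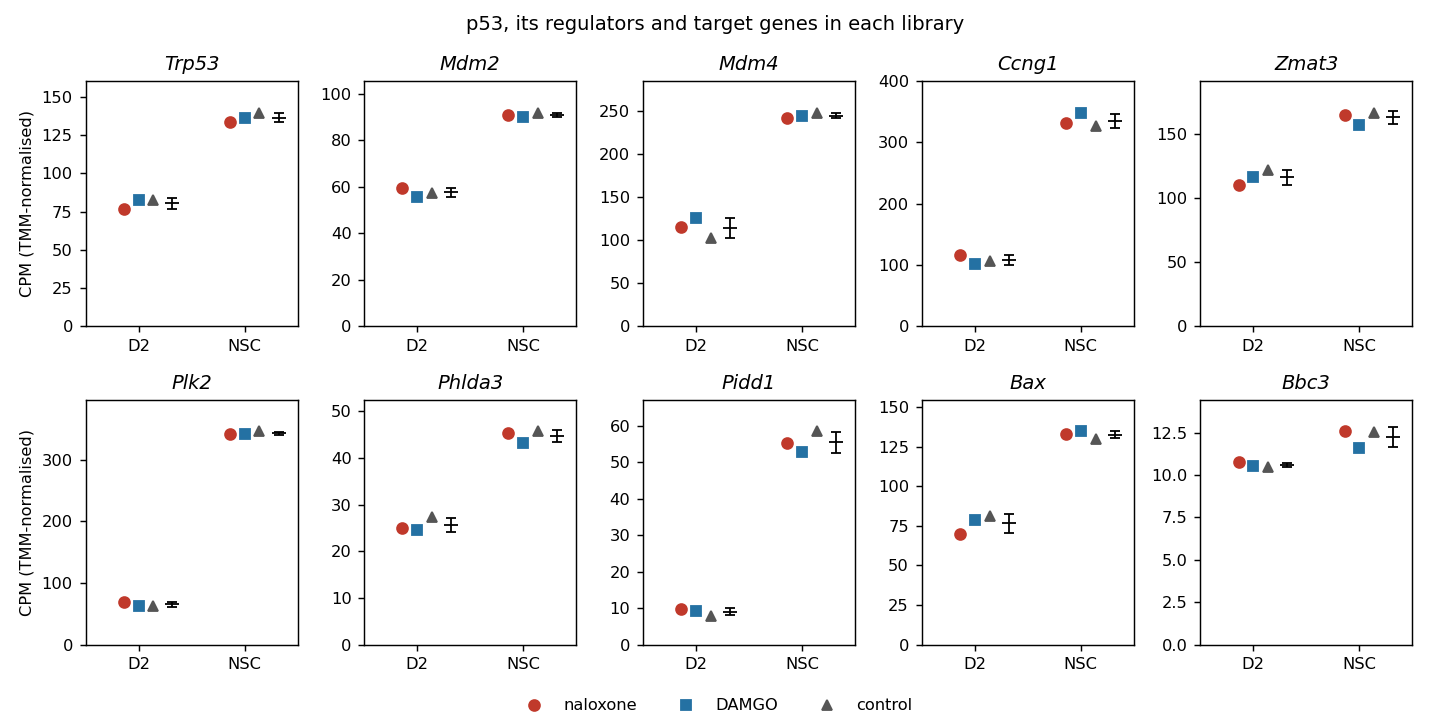
Normalised counts (CPM) of the 10 members in each of the 6 libraries, D2 at the left and NSC at the right of each panel, with the mean and SD of the 3 libraries of a state beside the points. In every panel the 3 D2 points lie below the 3 NSC points, with the widest gaps for Plk2 and Pidd1 and the narrowest for Bbc3.

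Trp53 (chromosome 11, 69580359 to 69591873, mm10), the gene of p53 itself, had 76.4, 82.4 and 82.9 CPM in the D2 libraries (naloxone, DAMGO, control), against 134, 136 and 140 CPM in the NSC libraries. The 2 states did not overlap, and within a state the libraries lay close together. Its level fell to 0.590 of the NSC level in D2 (log2 fold change -0.76, SE 0.05; edgeR, adjusted p = 7.08e-08). Of all tested genes, 23.7% had a more negative fold change.

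The regulators Mdm2 and Mdm4 fell as well, by different amounts. Mdm2 (chromosome 10, 117688875 to 117710758), which encodes the ubiquitin ligase of p53 and is also its target, had 59.5, 55.7 and 57.4 CPM in D2, against 90.8, 90.2 and 91.8 CPM in NSC. Its log2 fold change was -0.66 (SE 0.06; edgeR, adjusted p = 4.48e-07), and its 95% interval (-0.79 to -0.53) overlapped that of Trp53 (-0.88 to -0.64). Mdm4 (chromosome 1, 132959484 to 133030561), the partner of Mdm2 that blocks the activation domain of p53, had 115, 126 and 102 CPM in D2, against 243, 244 and 248 CPM in NSC. The NSC libraries were nearly equal for Mdm4, while the D2 control was the lowest and the D2 library with DAMGO the highest of their state. Mdm4 fell more than either (log2 fold change -1.10, SE 0.06, interval -1.24 to -0.96; edgeR, adjusted p = 1.02e-08), with an interval that did not overlap theirs. Set against Trp53 within the same library on the length-corrected TPM scale, Mdm2 stood at a ratio of 0.514 ± 0.00286 in D2 and 0.509 ± 0.0252 in NSC (SD, 3 libraries each), and the states overlapped. The length estimate of Mdm2 in D2 was 2636 bases with naloxone, where its CPM was highest, against 2315 with DAMGO and 2341 in the control. The small SD in D2 therefore depends on these length estimates. The ratio of Mdm4 to Trp53 was 0.608 ± 0.0752 in D2 and 0.826 ± 0.0374 in NSC, with no overlap between the states. How often such ratios separate the states over all gene pairs was not computed.

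Among the targets that act on the cell cycle or feed back on p53, Plk2 fell the most. Plk2 (chromosome 13, 110395046 to 110400844), a Polo-like kinase whose gene p53 induces, had 69.6, 63.3 and 63.0 CPM in D2, against 342, 342 and 346 CPM in NSC. This is a fall to 0.190 of the NSC level (log2 fold change -2.40, SE 0.06; edgeR, adjusted p = 4.83e-12), and 4.53% of tested genes had a more negative fold change. Ccng1 (chromosome 11, 40748552 to 40755311), the gene of cyclin G1, an atypical cyclin that recruits a phosphatase to Mdm2, had 117, 101 and 106 CPM in D2, against 331, 348 and 326 CPM in NSC. Ccng1 thus stood at 0.322 of its NSC level in D2, between Mdm4 and Plk2 in size of fall (log2 fold change -1.64, SE 0.06; edgeR, adjusted p = 1.78e-10). Phlda3 (chromosome 1, 135766119 to 135769136), which encodes a small inhibitor of the kinase Akt, had 24.6 to 27.4 CPM in D2, against 43.3 to 45.7 CPM in NSC (log2 fold change -0.80, SE 0.08; edgeR, adjusted p = 8.71e-07). Zmat3 (chromosome 3, 32334792 to 32366014), which encodes a zinc finger protein that binds RNA, had 110.1 to 122 CPM in D2, against 157 to 166 CPM in NSC, and fell the least of the 9 called members (log2 fold change -0.49, SE 0.05; edgeR, adjusted p = 4.54e-06). The fall of Phlda3 was close to that of Trp53, while the interval of Zmat3 (-0.61 to -0.37) did not overlap that of Trp53.

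The 3 targets of the cell death pathway differed widely. Pidd1 (chromosome 7, 141438113 to 141444025), which encodes the scaffold of a complex that activates caspase-2, had 9.80, 9.28 and 7.85 CPM in D2, against 55.2, 52.7 and 58.4 CPM in NSC. It stood at 0.161 of its NSC level, the largest fall of the 10 (log2 fold change -2.63, SE 0.10; edgeR, adjusted p = 2.37e-10), although its interval (-2.85 to -2.41) overlapped that of Plk2 (-2.52 to -2.27). Bax (chromosome 7, 45461697 to 45466898), the pore-forming protein of the outer mitochondrial membrane, had 69.7, 78.9 and 81.0 CPM in D2, against 133, 135 and 129.9 CPM in NSC (log2 fold change -0.79, SE 0.06; edgeR, adjusted p = 1.60e-07). The fall of Bax was similar in size to those of Trp53 and Phlda3, and the D2 library with naloxone was the lowest. By gene span, Bax overlaps the gene Gm45808 on the same strand, and Mdm4 overlaps a pseudogene, Gm29257, on the opposite strand. Neither Gm45808 nor Gm29257 has deposited values. Overlap of exons was not examined, and reads from any shared stretch cannot be told apart. Bbc3 (chromosome 7, 16308393 to 16318205), the gene of Puma, which binds the survival proteins of the BCL2 family, was scarce, with 10.7, 10.5 and 10.5 CPM in D2, against 12.6, 11.6 and 12.6 CPM in NSC. Its fold change of -0.21 on the log2 scale (SE 0.12) has a 95% interval of -0.47 to 0.05, which overlaps that of Zmat3 and none of the other 8 members' intervals.

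**Figure D2:**
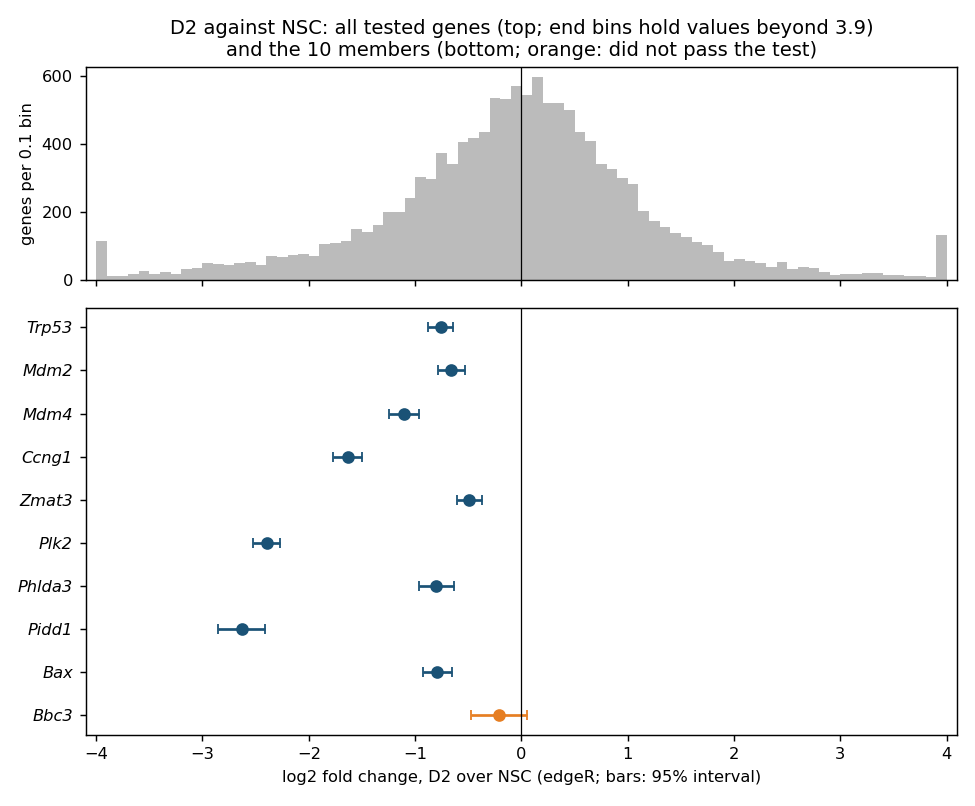
Log2 fold change of D2 over NSC: a histogram of all 13216 tested genes above, and below it the 10 members with 95% intervals from the edgeR fit, on the same axis. The members lie left of 0, from -2.63 for Pidd1 to -0.21 for Bbc3, whose interval includes 0.

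The direction was the same when each ligand condition was taken by itself, with 1 library per state. The D2 over NSC log2 ratio of Trp53 was -0.80 with naloxone, -0.72 with DAMGO and -0.75 in the controls. That of Plk2 was -2.29, -2.43 and -2.46, and that of Pidd1 was -2.47, -2.48 and -2.86, in the same order. Pidd1 had only 83, 82 and 80 counts in the D2 libraries, which limits its precision. For Mdm4 the ratio was -1.07 with naloxone, -0.95 with DAMGO and -1.28 in the controls. The exact counting intervals of the Mdm4 ratios with DAMGO (-1.06 to -0.85) and in the controls (-1.38 to -1.17) did not overlap. Those of Ccng1 with naloxone (-1.61 to -1.41) and with DAMGO (-1.89 to -1.68) did not overlap either. These intervals cover counting error only, and the share of all genes with such a gap was not computed.

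Levels between genes were compared per length, on the TPM scale, where Bax was the most abundant of the 10 in both states. In D2 Bax averaged 209 ± 13.9 TPM, followed by Trp53 (100.2 ± 3.18), Ccng1 (68.2 ± 6.02), Mdm4 (60.9 ± 7.13), Plk2 (52.0 ± 3.71), Mdm2 (51.5 ± 1.64), Phlda3 (41.4 ± 2.40), Zmat3 (35.0 ± 2.30), Bbc3 (16.1 ± 0.872) and Pidd1 (6.45 ± 0.310) (SD over 3 libraries). In NSC the order was Bax (359.9 ± 6.83), Plk2 (272 ± 1.77), Ccng1 (211 ± 7.33), Trp53 (165 ± 3.15), Mdm4 (136 ± 3.54), Mdm2 (84.1 ± 3.77), Phlda3 (72.1 ± 0.342), Zmat3 (47.6 ± 0.669), Pidd1 (43.0 ± 3.07) and Bbc3 (17.8 ± 3.84 TPM). Neighbours in the NSC order did not overlap in their ranges, whereas in D2 Ccng1 and Mdm4, Mdm4 and Plk2, and Plk2 and Mdm2 overlapped. Plk2 held the fifth place in D2 and the second in NSC, and Pidd1 stood under Bbc3 in D2 and over it in NSC.

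The effective length in the tables, an average over the transcripts of a gene weighted by their estimated abundance, gave a second readout. It was constant for Ccng1, Plk2 and Bax. Plk2 and Bax are listed with 1 transcript each, so their length could not vary, and Ccng1 is listed with 2. For Trp53 the effective length was 1745 to 1750 bases in D2, against 1775 to 1793 bases in NSC, a small difference without overlap. For the other members the states overlapped. The share of all genes whose effective length separates the states was not computed, and a change in transcript use was not tested. Bbc3 varied most, with 1528, 1325 and 1456 bases in D2 (naloxone, DAMGO, control), against 1741, 1126 and 1741 bases in NSC. The short value belongs to the NSC library with DAMGO, where Bbc3 stood at 22.2 TPM, against 15.6 TPM in both other NSC libraries, although its CPM was the lowest of the 3. The TPM difference of that library therefore came with a different length estimate and not with more counts. On the TPM scale Bbc3 was the 1 member whose states overlapped. The share over all genes was not computed for TPM. In CPM, 40.9% of tested genes were lower in every D2 library than in any NSC library.

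**Figure D3:**
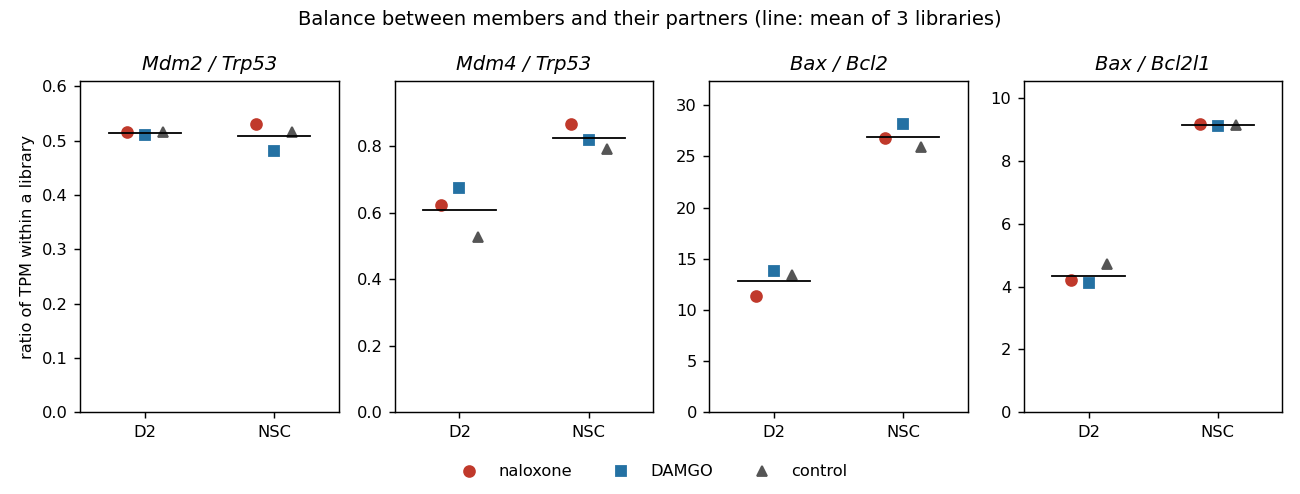
Ratio of TPM between pairs of genes within each library, D2 at the left and NSC at the right, with a line at the mean of the 3 libraries of a state. The ratio of Mdm2 to Trp53 overlaps between the states, while the ratios of Mdm4 to Trp53 and of Bax to the survival genes Bcl2 and Bcl2l1 are lower in every D2 library.

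Bax acts against survival proteins of its own family, so its level was set against theirs. Of 16 tested genes of the BCL2 family and its caspase partners 7 rose, 6 fell and 3 did not pass in D2 (median log2 fold change 0.06). Among all tested genes 40% rose and 39.8% fell. The survival genes Bcl2 (0.27, SE 0.07) and Bcl2l1 (0.28, SE 0.07) rose slightly, with edgeR adjusted p-values of 0.00246 and 0.00298. The TPM ratio of Bax to Bcl2 was 12.9 ± 1.32 in D2 and 26.9 ± 1.12 in NSC, and that of Bax to Bcl2l1 was 4.35 ± 0.324 in D2 and 9.14 ± 0.0336 in NSC. Neither ratio overlapped between the states. The largest changes in this list were the rise of Bmf, a BH3-only activator of cell death (log2 fold change 2.88, SE 0.15), and the falls of Bid (-1.34, SE 0.14), Bok (-1.33, SE 0.09) and the cytochrome c gene Cycs (-1.14, SE 0.07). Of the partners of Pidd1, the adaptor gene Cradd rose (0.81, SE 0.18; edgeR, adjusted p = 0.00153), and Casp2 had 65.2 ± 3.41 CPM in D2 and 63.5 ± 4.99 CPM in NSC and did not pass (edgeR, adjusted p = 0.614). The third survival gene, Mcl1, did not pass either (-0.01, SE 0.06). The TPM ratio of Bax to Mcl1 was 1.69 ± 0.192 in D2 and 2.90 ± 0.0905 in NSC, also without overlap. With 79.8% of tested genes changed between the states, separate ratios may be common, and their share over all gene pairs was not computed.

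Other genes listed as p53 targets, which were not members, also fell more often than they rose. Whether p53 acts on each listed gene in these mouse cells was not tested. Over 4 lists with 36 genes, 34 were tested, of which 20 fell (58.8%, against 39.8% of all tested genes), 7 rose (20.6%, against 40.0%) and 7 did not pass, with a median log2 fold change of -0.86. Of 8 arrest genes 5 fell and 2 rose. Cdkn1a, the inhibitor of cyclin-dependent kinases that is the best known p53 target, stood at 28.2 ± 1.70 CPM in D2 and 213 ± 9.73 CPM in NSC (log2 fold change -2.92, SE 0.06). Gtse1 (-3.29, SE 0.08), which is itself active in G2, and the phosphatase gene Ptprv (-3.83, SE 0.26) fell further, and Ptprv averaged 0.673 ± 0.271 CPM in D2 and 9.94 ± 0.744 CPM in NSC. Btg2, an antiproliferative gene, rose to 286 ± 13.5 CPM in D2, against 41.4 ± 4.85 CPM in NSC (2.79, SE 0.06), and Gadd45a did not pass (0.20, SE 0.18). Of 13 apoptosis genes 9 fell and 2 rose. Trp53i11 stood at 95.8 ± 1.13 CPM in D2 and 752.5 ± 3.06 CPM in NSC (-2.97, SE 0.05), and Eda2r, a death receptor gene, fell by 1.84 on the log2 scale. Steap3 (-2.92, SE 0.58) and Dram1 (-1.97, SE 0.44) fell but averaged under 4 CPM in both states, and Fas and Perp were below 2 CPM in both states and did not pass.

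The lists of metabolism and of DNA repair also held genes of both directions, with median log2 fold changes of -0.15 and -0.32. Among all tested genes 39.8% fell and 40% rose. Of 7 tested metabolic and redox targets 3 fell and 1 rose: Ephx1 (-1.71, SE 0.06), the glycolysis regulator Tigar (-0.99, SE 0.09) and the glutaminase Gls2 (-0.72, SE 0.28) fell, while Sesn1, a stress-induced inhibitor of growth signalling, rose (1.24, SE 0.07). Sesn2 (-0.09, SE 0.08) and Fdxr (-0.15, SE 0.12) did not pass. Of the 6 genes in the repair list 3 fell and 2 rose. The damage sensors of nucleotide excision repair, Ddb2 (1.52, SE 0.17) and Xpc (0.98, SE 0.08), rose, while the bypass polymerases Polh (-1.96, SE 0.10) and Polk (-1.63, SE 0.14) fell, and Ercc5 did not pass (-0.10, SE 0.07).

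Regulators upstream of p53 moved in both directions. Of 19 regulators 9 fell, 6 rose and 4 did not pass (median -0.11), beside 39.8% of all tested genes that fell and 40% that rose. Chek1, the checkpoint kinase, stood at 2.35 ± 0.378 CPM in D2 and 61.0 ± 3.96 CPM in NSC (log2 fold change -4.71, SE 0.12). Chek2 (-3.06, SE 0.12), Atr (-2.72, SE 0.09) and Atm (-2.40, SE 0.09), which phosphorylate p53 or its regulators after DNA damage, fell as well, and these 4 were the largest changes in the list. The damage kinase gene Prkdc fell (-0.83, SE 0.09, beside -0.76, SE 0.05, for Trp53), and Hipk2, whose kinase phosphorylates p53 after damage, rose (0.63, SE 0.05). The acetyltransferase gene Ep300 (0.11, SE 0.05) and the ubiquitin ligase gene Cop1 (0.14, SE 0.07) did not pass. The cell cycle markers were lower in D2 too, of which Mki67 stood at 31.1 ± 9.44 CPM in D2 and 1518 ± 37.5 CPM in NSC. A link between these markers and the falls of the regulators was not tested. The relatives of p53 were scarce: Trp63 had at most 3 counts in any library, and Trp73 had at most 15 counts in any library.

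**Figure D4:**
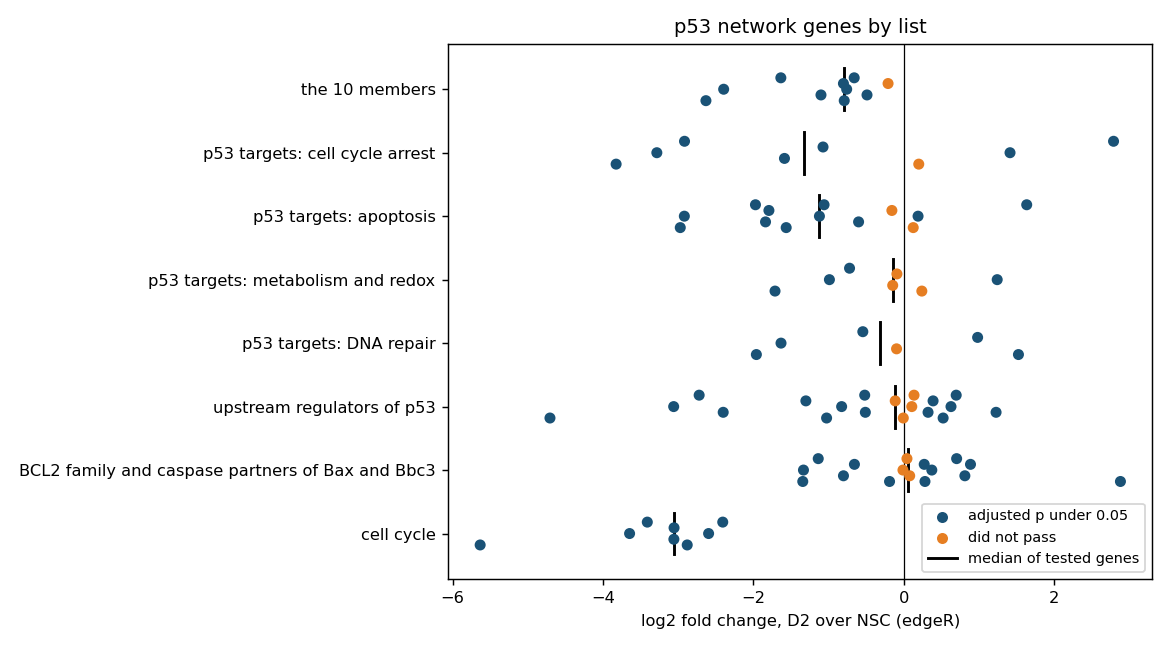
Log2 fold change of D2 over NSC for the 10 members and 7 lists of related genes, 1 point per tested gene, coloured by whether it passed the edgeR test, with a bar at the median of each list. The target lists for arrest and apoptosis have medians of -1.33 and -1.12, beside -0.80 for the members, and every list has points on both sides of 0 except the members and the cell cycle list, whose points all lie below -2.

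Neither ligand changed a member beyond the test's threshold. For naloxone against control, DAMGO against control and naloxone against DAMGO, 0 of the 10 members passed in edgeR, DESeq2 or limma, and 0 had an unadjusted edgeR p under 0.05. In the same order, only 293, 317 and 280 of all 13216 tested genes had such an unadjusted p. With so few genes reaching it, 0 of 10 does not set the members apart. The edgeR test called few genes at all, namely 0.0151% of tested genes for naloxone (0.00757% higher and 0.00757% lower), 0.0151% for DAMGO (0.00757% higher and 0.00757% lower) and 0.0303% for naloxone against DAMGO (0.00757% higher and 0.0227% lower). The log2 fold changes of the members lay between -0.11 and 0.12, and every 95% interval lay within -0.39 and 0.40, or within -0.31 and 0.32 without Bbc3. Trp53 was at -0.09 (SE 0.07, interval -0.23 to 0.06) for naloxone and at -0.02 (SE 0.07, interval -0.17 to 0.12) for DAMGO. The largest value of the 30 was that of Mdm4 with DAMGO (0.12, SE 0.08, interval -0.05 to 0.30).

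Within 1 state a ligand and its control are 1 library each, and these ratios have no replicate check and no p-value. In D2 with naloxone, the exact counting interval excluded a ratio of 1 for 4 of 10 members, against 25.6% of genes with at least 80 counts in every library. Mdm4 (974 against 1043 counts, log2 ratio 0.17 after correction for library size) and Ccng1 (987 against 1081 counts, 0.14) were higher with naloxone, and Zmat3 (932 against 1241 counts, -0.14) and Bax (590 against 826 counts, -0.22) were lower. In D2 with DAMGO, the interval excluded 1 for Mdm4 alone of the 10 (1113 against 1043 counts, log2 ratio 0.30, interval 0.18 to 0.42), against 19.2% of genes. Both comparisons of Mdm4 share the D2 control library, which was the lowest for this gene. In NSC, the interval excluded 1 for 0 of 10 members with naloxone (background 9.68%) and for 1 with DAMGO (background 8.48%), namely Ccng1 (3155 against 3455 counts, log2 ratio 0.09, interval 0.02 to 0.16). Between naloxone and DAMGO, it did so for Mdm4, Ccng1 and Bax in D2 (background 23.5%) and for Ccng1 in NSC (background 12.6%). Pidd1 had the highest ratio of all, 0.31 with naloxone in D2, but from 83 against 80 counts, and its interval of -0.14 to 0.78 includes 0.

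**Figure D5:**
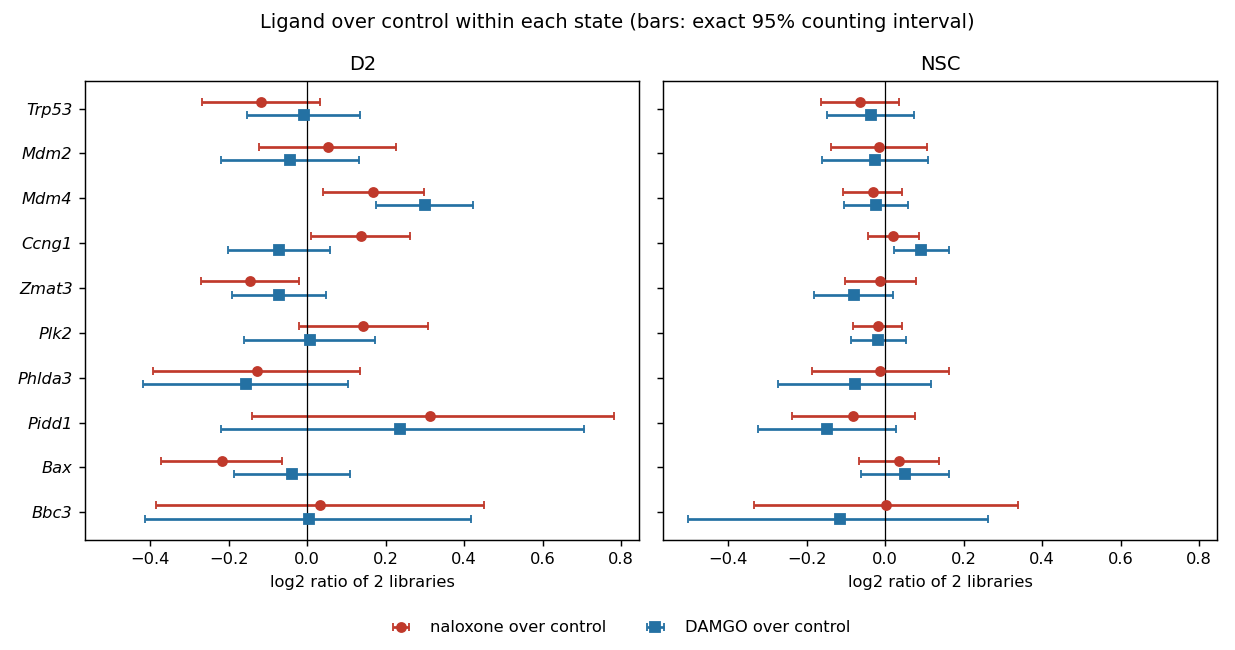
Log2 ratio of the naloxone and the DAMGO library to the control library of the same state for each member, D2 at the left and NSC at the right, with exact 95% counting intervals. The NSC ratios reach from -0.15 for Pidd1 to 0.09 for Ccng1, and the D2 ratios reach from -0.22 for Bax to 0.31 for Pidd1, with wide intervals for the low genes Pidd1 and Bbc3.

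Genes whose pattern over the 6 libraries lay nearest to that of Trp53 were sought among 8281 genes of at least 20 CPM, by the root mean square difference of centred log2 CPM. Col16a1, Sem1 and Gm5786 were nearest, each at 0.02, and 446 genes lay within 0.1. For Mdm2 the nearest were Alkbh1 (0.01), Cdk17 (0.02) and Lamc1 (0.02), and 625 genes lay within 0.1. Of the other members, Bax (0.05), Phlda3 (0.06) and Mdm2 (0.08) were within 0.1 of Trp53, and Pidd1 (0.93) was farthest among those compared. With 6 libraries in 2 states, this measure mainly ranks genes by how close their D2 to NSC difference is to that of Trp53 or Mdm2.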

How the data were processed

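Per the labels' protocols, RNA was isolated with Trizol, and the Illumina TruSeq RNA kit was used for library preparation. This kit does not mark strand. For each library the authors deposited a gene table that lists the expected count, TPM and effective length, made with Bowtie and RSEM on mm10 per the submitters' processing notes. Tool versions, the annotation and any filtering of reads: not given in the sources used here. The expected counts divide reads that map to several features. Those of Mdm2 and Zmat3 were fractional in all 6 libraries, those of Trp53 in 4 and that of Mdm4 in 1, so reads of these genes may have been divided with other features. TPM values, also as the authors deposited them, are corrected for length and sum to the same total in each library. Of 29267 identifiers, 28756 matched a symbol, and coordinates come from GENCODE M21 on the same build.

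Expected counts were rounded to whole numbers. After a filter (mean count of 10 or more) and TMM scaling, the quasi-likelihood test of edgeR 4.0.16 (glmQLFit, glmQLFTest; R 4.3.3) was run on a model with additive terms for ligand and state, which leaves 2 residual degrees of freedom. A gene at 0 may have had up to 3 counts, or 0.221 to 0.356 CPM. P-values were adjusted by Benjamini-Hochberg over 13216 genes, with a threshold of 0.05. The SE of a fold change was derived as its absolute log2 value divided by the square root of the test's F statistic. The 95% intervals of fold changes were built from this SE and the t distribution. CPM values are TMM-normalised. Ratios of 2 libraries use a prior count of 2 and exact binomial 95% intervals, which cover counting error only. Alternatives used DESeq2 1.42.0, limma 3.58.1 on log2(TPM + 1) and log2(TPM + 0.1), other filters, RLE scaling, no ligand term and each library or ligand pair left out. All members were described. From each of 16 lists up to 4 called genes with the largest change and up to 2 abundant genes that did not pass were eligible for naming. Bcl2, Bcl2l1, Cradd, Prkdc and Hipk2 were named after their values were seen. The members and lists were chosen with earlier results of these data known.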

Additional observations from a re-analysis of the deposited data

Results flagged for a closer look

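The ratio of naloxone to DAMGO for Ccng1, the cyclin G1 gene, went opposite ways in the 2 states. In D2 it was above 0 (987 counts with naloxone and 892 with DAMGO, log2 ratio 0.21, interval 0.08 to 0.34), and in NSC below 0 (4477 and 3155 counts, log2 ratio -0.07, interval -0.14 to -0.01). The ratios differ by 0.28. With 1 library per group the difference was not tested. It was the 1 such case among the 10 members and 3 ligand pairs in which both exact counting intervals excluded a ratio of 1. Of genes with at least 80 counts in every library, this interval excluded 1 for 23.5% in D2 and 12.6% in NSC. The share of genes with both intervals on opposite sides was not computed.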

How the results depend on the processing

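All 520 fold changes of the 10 members under alternatives, over 4 contrasts, kept their direction where called and their side of the threshold, and the state contrast called 9 members lower and 0 higher under each of 16 alternatives. The 4 lists of p53 targets had 16 to 21 genes lower and 7 higher. The number of genes called for the ligands over all genes did move. For naloxone it was 2, and 0 with RLE, with a mean of at least 50 counts and with limma at either pseudocount, 1 with DESeq2 and 45 with no filter. For DAMGO it was 2, and 0 with DESeq2 and limma and 83 with no filter. For naloxone against DAMGO it was 4, and 1 with RLE, 0 with DESeq2 and limma and 53 with no filter. With 1 library left out, the range was 1 to 127 for naloxone, 4 to 160 for DAMGO and 5 to 50 for their difference. In the same order, leaving out the NSC control gave 127, 160 and 50. The others gave 43, 27 and 19 without NSC with naloxone, 11, 40 and 30 without NSC with DAMGO, 25, 19 and 28 without the D2 control, 1, 4 and 5 without D2 with naloxone, and 12, 7 and 6 without D2 with DAMGO. The cause was not tested. Among marker lists, 1 neuronal gene was lower, and 0 without either or both DAMGO libraries, with a mean of at least 50 counts and with limma at either pseudocount. Of fibroblast and pericyte genes 2 were higher, and 4 without D2 with naloxone and 0 with a mean of at least 50 counts, while 0 were lower, and 2 without either or both controls. Of 120 ratios of 2 libraries under alternatives, 2 moved beyond their counting interval, both on the TPM scale: Bbc3 with DAMGO in NSC, at 0.49 in place of -0.12, and Mdm4 with naloxone in NSC, at 0.07 in place of -0.03. No paired analysis was possible because no replicate numbers in the labels pair the libraries, beyond the state and ligand terms by which the fit already pairs them. Without the ligand term, 9 members were lower and 0 higher. Pidd1 and Bbc3, with 80 to 107 counts per D2 library, are limited most by depth.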

Other observations

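Relatives of the members did not share one direction. Of 7 tested genes of the cyclin G, Polo-like kinase, PHLDA and ZMAT families 4 fell, 2 rose and 1 did not pass in D2 against NSC. Among all tested genes 39.8% fell and 40% rose. Plk4, the kinase of centriole duplication (log2 fold change -3.80, SE 0.09), Plk1, the main mitotic Polo-like kinase (-2.86, SE 0.07), Plk3 (-1.59, SE 0.12) and Zmat1 (-1.38, SE 0.21) fell, each with an edgeR adjusted p of at most 6.68e-05. Ccng2, the closest relative of Ccng1, rose to 73.5 ± 0.466 CPM in D2, against 42.6 ± 2.50 CPM in NSC (0.79, SE 0.06; edgeR, adjusted p = 2.61e-07), so the TPM ratio of Ccng1 to Ccng2 was 1.03 ± 0.0829 in D2 and 5.21 ± 0.373 in NSC. Phlda1 did not pass (-0.07, SE 0.08). Ccng2 was named after its values were seen.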
